A study of Ovis aries with 2 samples.

Results

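PTX3 and CCL26 fibroblasts were 439 cell barcodes of a sheep carotid artery that carried fibroblast transcripts together with transcripts of PTX3, CCL26 or both. They were chosen from the native artery library in several steps. A barcode needed at least 1000 unique molecular identifiers (UMIs, each standing for 1 captured transcript) and at most 20% UMIs from mitochondrial genes. It needed at least 3 UMIs summed over the fibroblast genes PI16, SFRP2, SFRP4, MFAP5 and SERPINF1, and that sum had to be at least 2 times each sum of endothelial, smooth muscle, macrophage and T cell genes. These steps left 850 native fibroblast barcodes of 6810 barcodes within the UMI and mitochondrial limits. Of the 850, 439 (51.6%, 95% Clopper-Pearson interval 48.2 to 55.1%) carried 2 or more UMIs of PTX3 and CCL26 together, and the 411 below 2 are called the other fibroblasts. The whole series held 12600 barcodes, 11371 of them native.

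The samples were 1 library of native carotid artery and 1 library of an explanted graft titled H2R5-ATEV, both from sheep aged 1 to 2 years and taken 12 weeks after implantation. The native sample is titled an aorta, although its other labels give the carotid artery. The labels name no strain and do not say how many animals gave tissue, and cells were freed by enzymes perfused through the vessel. Each condition is 1 library, so no difference has a replicate check and no test between conditions or cell groups was made.

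PTX3 encodes a long pentraxin, a secreted pattern recognition protein that binds complement C1q and, with TNFAIP6, helps to crosslink hyaluronan in the matrix around cells. CCL26 encodes a chemokine of the eotaxin group, which draws eosinophils through the receptor CCR3 and in human cells is induced by interleukins 4 and 13. Fibroblasts of the outer vessel wall, the adventitia, make its collagen and proteoglycans and can answer injury by secreting cytokines, complement and prostaglandins.

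The native library held 43183715 UMIs, with a median of 1366 per barcode, and the graft library 36238351 UMIs, with a median of 17050. The libraries shared 7 barcode sequences, and none of these was a PTX3 and CCL26 fibroblast or an other fibroblast. Intervals throughout are exact at 95% and cover counting error only, since cells of 1 library are not replicates. Levels are CPM, the UMIs of a gene summed over barcodes and scaled to a total of 1000000, and a log2 ratio has 5 CPM added to both sides.

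The choice used PTX3, CCL26 and the fibroblast genes themselves, so their values are descriptions. CCL26 (ENSOARG00020023401) gave 5010 UMIs in PTX3 and CCL26 fibroblasts and 81 in the other fibroblasts. PTX3 (ENSOARG00020000946) gave 777 and 35. CCL26 therefore supplied most of the UMIs that placed a barcode in the group: 400 of the 439 carried it and 117 carried PTX3. Both genes were present in 78 barcodes, CCL26 alone in 322 and PTX3 alone in 39. The group held 68.8% of the native library's CCL26 UMIs and 62.3% of its PTX3 UMIs with 11.8% of all its UMIs. CCL26 was unevenly spread, and the 44 barcodes with the most CCL26 UMIs held 37.7% of those in the group.

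**Figure D1:**
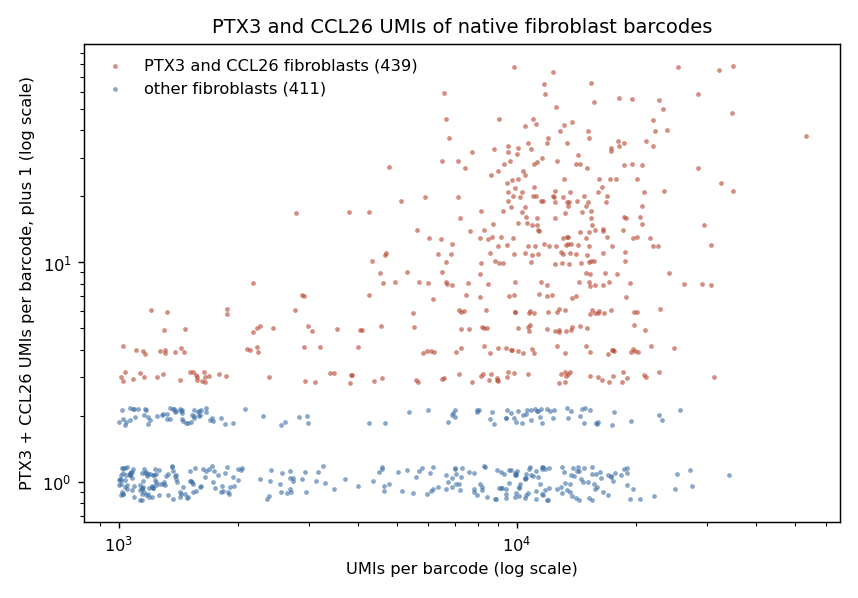
PTX3 plus CCL26 UMIs (vertical axis, log scale, 1 added, points spread slightly so that equal counts can be seen) against all UMIs (horizontal axis, log scale) of the 850 native fibroblast barcodes, with the 439 PTX3 and CCL26 fibroblasts above the 411 other fibroblasts. The PTX3 and CCL26 fibroblasts are mostly deep barcodes, with a median of 10982 UMIs against 3712 in the other fibroblasts.

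Membership moved with sequencing depth. PTX3 and CCL26 fibroblasts had a median of 10982 UMIs per barcode and the other fibroblasts 3712. Of fibroblast barcodes with 1000 UMIs or more but under 2000, 37 of 209 (17.7%) were PTX3 and CCL26 fibroblasts, and at 8000 UMIs or more 312 of 467 (66.8%) were. A shallow barcode had fewer chances to show 2 UMIs, so the other fibroblasts hold barcodes whose state was not detectable at their depth. After each barcode was thinned to 1000 UMIs, 322 of 850 fibroblast barcodes (37.9%, 34.6 to 41.2%) had a PTX3 or CCL26 UMI.

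The threshold fell within a continuous range of counts. Exactly 2 UMIs were found in 67 PTX3 and CCL26 fibroblasts, exactly 1 in 116 other fibroblasts and 0 in 295 others, while 135 barcodes had 15 or more. The barcodes with exactly 2 had a median of 6491 UMIs in all, and those with exactly 1 had 2729. The median mitochondrial share was 1.73% in PTX3 and CCL26 fibroblasts and 1.82% in the other fibroblasts.

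On a list of fibroblast identity genes, the 2 groups of barcodes were close to each other, in part by the choice. Of 19 measured fibroblast identity genes, 1 was at least 2-fold higher in PTX3 and CCL26 fibroblasts and none was at least 2-fold lower. Over all genes of at least 10 UMIs the shares were 0.266% and 0.622%. The median log2 ratio of the list was -0.04, against -0.02 over all genes. The list holds the rule's fibroblast genes, whose sum was required of both groups, so part of the closeness follows from the choice. DCN, the collagen-binding proteoglycan decorin, stood at 14099 CPM in PTX3 and CCL26 fibroblasts and 10141 CPM in the other fibroblasts. COL1A2, a chain of type I collagen, stood at 12699 and 12489 CPM. Of the genes given to mark the group, PTGDS was higher in it, while SFRP4, a secreted WNT antagonist, was at 1761 CPM in PTX3 and CCL26 fibroblasts and 2242 CPM in the others. PI16, a marker of adventitial fibroblasts, was at 1169 and 1439 CPM. SFRP4 and PI16 are genes of the rule, and neither was higher in the PTX3 and CCL26 group.

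Across genes of at least 50 CPM and 30 UMIs on the higher side, PTX3 and CCL26 fibroblasts differed from the others in a small set. Of 3783 genes, 18 (0.476%) were at least 2-fold higher in them, 27 (0.714%) were lower by as much, and the log2 ratios had a median of -0.02. PTGDS, C2, CFB and CPE were among the higher genes, and IGFBP5, DPT, ECM1, ADAMTS16, ADAMTS19, MMP16 and BMP7 among the lower ones. Of the 18 higher genes 10 had a symbol, and of the 27 lower genes 22 did.

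PTGDS, the enzyme that makes prostaglandin D2, had the most UMIs of the higher genes with a symbol. It was at 4440 CPM in PTX3 and CCL26 fibroblasts (4383 to 4499) and 1599 CPM in the others (1552 to 1648), a ratio of 2.78 (2.69 to 2.87). It was detected in 411 of 439 PTX3 and CCL26 fibroblasts and 290 of 411 others. With barcodes of at least 8000 UMIs thinned to 8000, PTX3 and CCL26 fibroblasts had a median of 31 PTGDS UMIs (lowest 0, highest 152) and other fibroblasts a median of 4 (lowest 0, highest 72). The distributions overlapped while their middles lay apart.

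C2 and CFB encode the serine proteases that form the catalytic part of complement's convertases, and they are neighbours in the RefSeq annotation of the sheep assembly ARS-UI_Ramb_v3.0. C2 was at 162 CPM in PTX3 and CCL26 fibroblasts and 54.2 CPM in the others, a ratio of 2.98 (2.50 to 3.58). CFB was at 106 and 44.9 CPM, a ratio of 2.35 (1.93 to 2.89). Both were named by their rank among these ratios, so the intervals describe counting error and are no test. In the barcodes with PTX3 alone, C2 was at 60.3 CPM (41.2 to 85.1) and CFB at 66.0 CPM (45.9 to 91.7). C2 was found in 56.9% of PTX3 and CCL26 fibroblasts and 18.7% of the others, a gap that includes their difference in depth. With barcodes of at least 8000 UMIs thinned to 8000, the shares were 54.2% and 28.4%.

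Several of the other higher genes encode secreted proteins, chosen by rank and not from a list. CPE, a carboxypeptidase that trims prohormones, was at 423 CPM in PTX3 and CCL26 fibroblasts and 197 CPM in the others. ANGPT4, a ligand of the TIE2 receptor, was at 89.5 and 34.5 CPM, and SMOC1, a matricellular protein, at 57.4 and 17.1 CPM, which is 3.36-fold higher in PTX3 and CCL26 fibroblasts (2.46 to 4.69). IGF2, a growth factor, was at 1883 and 1024 CPM, 1.84-fold higher and below the 2-fold limit. Among genes of intracellular metabolism, CYP4B1, a cytochrome P450, was 3.01-fold higher in PTX3 and CCL26 fibroblasts and SLC25A21, a mitochondrial carrier, 2.47-fold higher.

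The remaining names of the 15 highest were SLC16A14 (55.5 CPM in PTX3 and CCL26 fibroblasts and 24.9 CPM in the others), NTM, CCDC146, RASSF9 and THSD7A. The last 4 had ratios between 1.92 and 2.01. NTM encodes a cell adhesion molecule, and its level was 109 CPM in PTX3 and CCL26 fibroblasts and 54.2 CPM in the others. Genes with no symbol were also among the higher ones, led by ENSOARG00020006183 at 58.8 and 14.9 CPM and ENSOARG00020026068 at 1478 and 504 CPM.

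**Figure D2:**
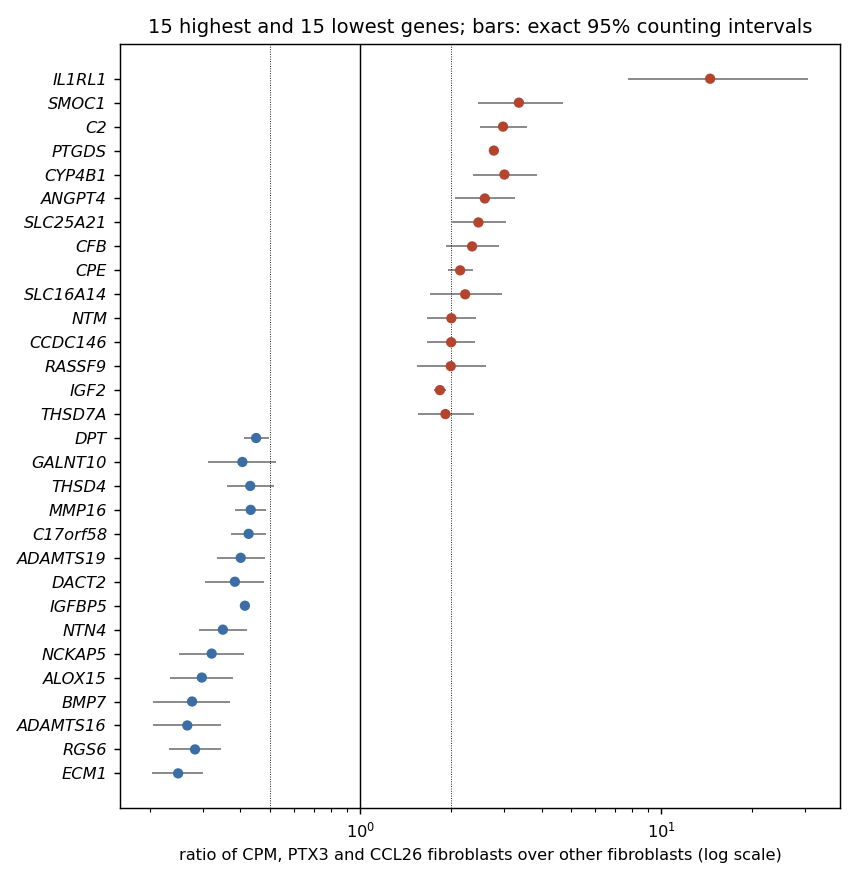
Ratio of CPM in PTX3 and CCL26 fibroblasts over other fibroblasts (horizontal log axis) for the 15 highest and 15 lowest genes by log2 ratio, with exact 95% intervals for counting error and dotted lines at 2-fold. PTGDS and IGFBP5 have the narrowest intervals, while IL1RL1 at 14.5 has one from 7.77 to 30.6.

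IL1RL1, the receptor of interleukin 33, had the highest ratio over the other fibroblasts among these 15 highest genes, and it rested on few cells. It was at 53.9 CPM in PTX3 and CCL26 fibroblasts and 3.71 CPM in the others, a ratio of 14.5 (7.77 to 30.6). It was detected in 19 of 439 PTX3 and CCL26 fibroblasts and in 3 of 411 others. The 4 highest barcodes, with 85, 71, 57 and 17 UMIs, held 230 of the 274 UMIs, and 3 of these 4 carried PTX3. The rest of the group showed little of it, so the ratio describes a handful of barcodes rather than the group.

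Among the lower genes, IGFBP5 had the most UMIs. IGFBP5, which binds and modulates insulin-like growth factors, was at 1091 CPM in PTX3 and CCL26 fibroblasts (1063 to 1120) and 2638 CPM in the others (2577 to 2700), a ratio of 0.414. At 8000 UMIs a PTX3 and CCL26 fibroblast had a median of 3 IGFBP5 UMIs (lowest 0, highest 124) and an other fibroblast 14 (lowest 0, highest 137). Here too the distributions overlapped, with the other fibroblasts higher in the middle.

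Matrix genes among the 15 lowest were ECM1 (30.9 CPM in PTX3 and CCL26 fibroblasts and 124 CPM in the others), DPT, the collagen-binding protein dermatopontin (156 and 346 CPM), NTN4, the basement membrane netrin (38.6 and 110 CPM), and THSD4, which assists fibrillin assembly (44.7 and 104 CPM). The proteases were ADAMTS16 (18.3 and 68.7 CPM), ADAMTS19 (41.5 and 104 CPM) and MMP16, a membrane-type metalloproteinase (99.7 and 231 CPM). All 7 were thus lower in PTX3 and CCL26 fibroblasts, with ratios from 0.248 for ECM1 to 0.451 for DPT. BMP7, a bone morphogenetic protein, was at 14.4 and 52.0 CPM, and DACT2, a WNT pathway modulator, at 26.8 and 69.8 CPM.

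The other low genes were ALOX15, a lipoxygenase that interleukin 4 induces in human monocytes (21.4 CPM in PTX3 and CCL26 fibroblasts and 72.0 CPM in the others), RGS6 (31.5 and 111 CPM), NCKAP5 (20.9 and 65.0 CPM), C17orf58 (82.0 and 193 CPM) and GALNT10, which starts mucin-type glycosylation (21.2 and 52.4 CPM). The ratios of these 5 lay between 0.283 and 0.426. Without a symbol, ENSOARG00020036063 was at 5.31 and 53.5 CPM and ENSOARG00020015678 at 93.2 and 301 CPM.

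Levels of many of these genes were ordered by the PTX3 and CCL26 level, a comparison that used the rule's own values and is a description. Fibroblast barcodes of at least 4000 UMIs were put in 5 bins with 0, up to 2, 2 to 5, 5 to 10 and above 10 PTX3 and CCL26 UMIs per 10000. Of the named genes, 12 of the 15 highest genes were at their highest in the top bin and 4 of them increased at every step, while 14 of the 15 lowest genes were at their highest in the bin at 0 and 5 decreased at every step. IL1RL1, NTM and THSD7A were the 3 exceptions among the higher genes and peaked in the third bin, and GALNT10 was the exception among the lower genes. Steps were uneven: THSD4 was at 130, 119, 18.4, 24.4 and 35.1 CPM from the lowest bin to the highest. PTGDS stood at 1308, 1994, 3606, 4072 and 5938 CPM from the lowest bin to the highest. IGFBP5 stood at 3103, 2304, 1232, 992 and 593 CPM over the same bins. PTGDS was thus highest and IGFBP5 lowest in the bin with the most PTX3 and CCL26. C2 was at 47.0 CPM in the lowest bin and 188 CPM in the highest, and ECM1 at 144 and 20.3 CPM. Median UMIs of the 5 bins lay between 10545 and 13388, so depth was similar across them.

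**Figure D3:**
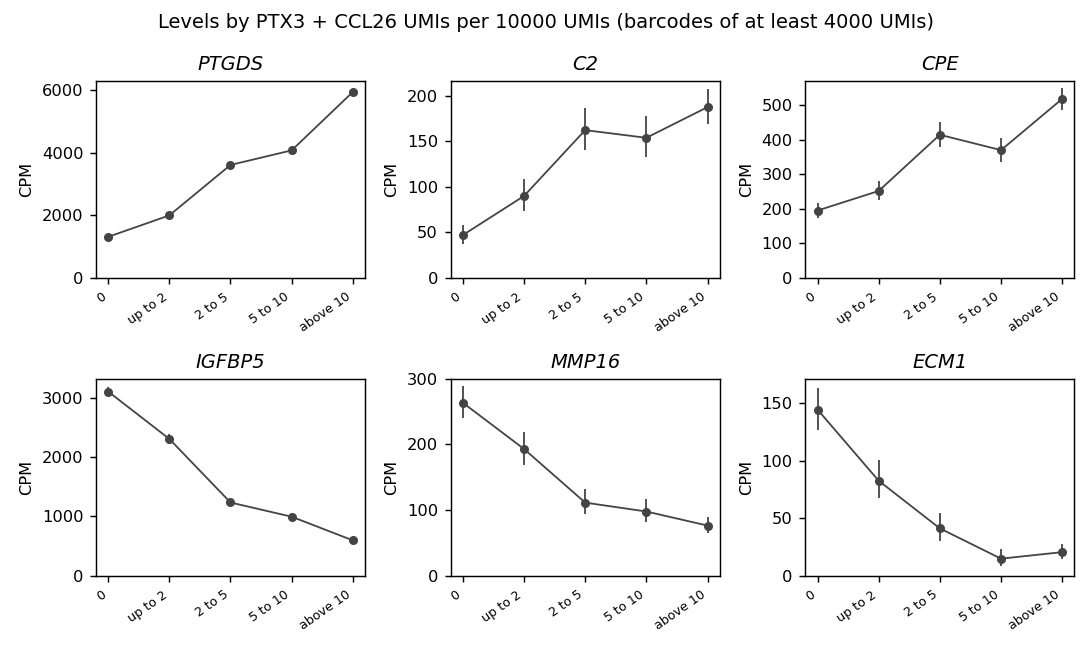
CPM (vertical axes, from 0) of 6 genes in 5 bins of PTX3 plus CCL26 UMIs per 10000 UMIs (horizontal axes, low to high) among native fibroblast barcodes of at least 4000 UMIs, with exact 95% Poisson intervals. PTGDS, C2 and CPE are highest in the bin above 10, and IGFBP5, MMP16 and ECM1 are highest in the bin at 0.

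Gene lists were read against all genes of at least 10 UMIs, of which 0.266% were at least 2-fold higher in PTX3 and CCL26 fibroblasts and 0.622% at least 2-fold lower. Of 8 measured complement genes, 8 were above 0 on the log2 scale, 2 were at least 2-fold higher (C2 and CFB) and the median was 0.41, against -0.02 over all genes. C1R, a protease of the first complement complex, was at 1068 CPM in PTX3 and CCL26 fibroblasts and 947 CPM in the others. C1S, its partner, was at 908 and 696 CPM, and CD59, an inhibitor of the terminal complex, at 369 and 307 CPM.

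Of 10 measured prostaglandin genes, 7 were above 0 and 1 (PTGDS) was at least 2-fold higher, with a median of 0.36. PTGS2, the inducible cyclooxygenase, was at 506 CPM in PTX3 and CCL26 fibroblasts and 385 CPM in the others. PLA2G4A, which frees arachidonic acid, was at 149 and 99.9 CPM, whereas PTGIS, prostacyclin synthase, was at 96.8 and 122 CPM.

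In the insulin-like growth factor list, 5 of 10 genes were above 0, 1 (IGFBP5) was at least 2-fold lower and the median was 0.09. IGFBP6 was at 4608 CPM in PTX3 and CCL26 fibroblasts and 3998 CPM in the others, and IGFBP2 at 1368 and 1171 CPM. IGF2 and IGFBP5, described above, thus lay on opposite sides.

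Collagen and matrix lists stayed near the middle. Of 20 fibrillar collagen and crosslinking genes 7 were above 0, 1 (LOXL1, 23.0 CPM in PTX3 and CCL26 fibroblasts and 53.1 CPM in the others) was at least 2-fold lower and the median was -0.12. The 12 small leucine-rich proteoglycans had 8 above 0, none at least 2-fold different and a median of 0.17, with KERA, keratocan, at 1750 and 976 CPM. Of 16 elastic fibre genes 9 were above 0 and none was 2-fold different, though FBN1, fibrillin, was at 2386 CPM in PTX3 and CCL26 fibroblasts and 4201 CPM in the others. Of 14 metalloproteinases and inhibitors, a list that does not hold MMP16, ADAMTS16 or ADAMTS19, 7 were above 0 and none was 2-fold different.

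Inflammatory lists moved little in the whole group. Of 17 NF-kB and interleukin 1 response genes, 10 were above 0, none was 2-fold different and the median was 0.10. CEBPD, a transcription factor, was at 1021 CPM in PTX3 and CCL26 fibroblasts and 700 CPM in the others, while TNFAIP6, the hyaluronan-modifying protein TSG6, was at 1128 and 1414 CPM. Of 24 immediate early genes, which dissociation of tissue can induce, 18 were above 0, none was 2-fold different and the median was 0.22, with FOS at 6259 and 5115 CPM. Of 10 interleukin 4 and 13 response genes 4 were above 0 and 2 (ALOX15 and POSTN) at least 2-fold lower, with POSTN, periostin, at 2.16 and 25.3 CPM.

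Few members of the remaining lists were 2-fold different. WNT2, a secreted WNT ligand, was at 31.1 CPM in PTX3 and CCL26 fibroblasts and 69.4 CPM in the others, BMP4, a bone morphogenetic protein, at 11.8 and 29.3 CPM, and PDGFC, a platelet-derived growth factor, at 4.52 and 16.7 CPM. XCL1, a lymphocyte chemokine, was at 6.49 and 29.3 CPM, and TNC, the matrix protein tenascin C, rested on 1 UMI in PTX3 and CCL26 fibroblasts and 22 UMIs in the others. These 5 genes were all lower in PTX3 and CCL26 fibroblasts, and WNT2 was the one among them with 50 CPM or more on either side. FGF7, a fibroblast growth factor for epithelium, was at 538 and 370 CPM, and GREM1, a BMP antagonist, at 258 and 140 CPM, both below the 2-fold limit.

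**Figure D4:**
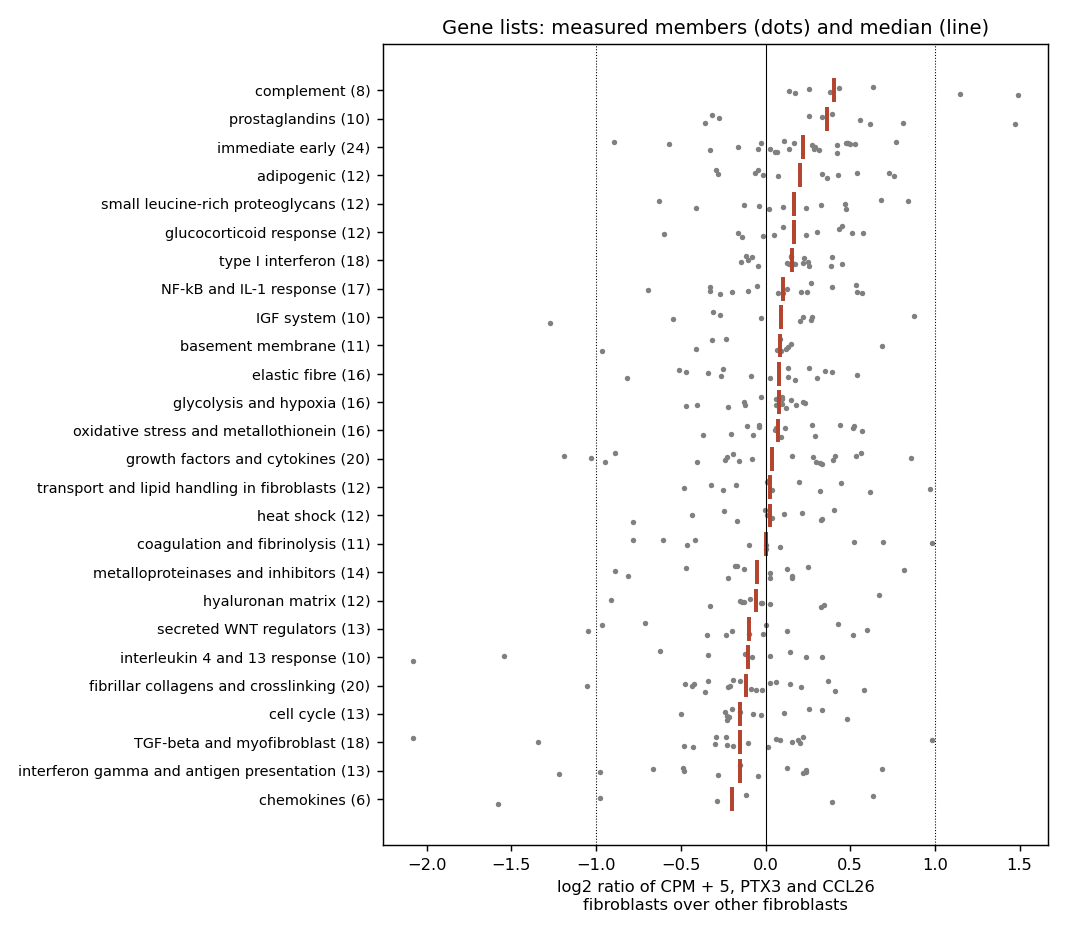
Log2 ratio of CPM plus 5 (horizontal axis), PTX3 and CCL26 fibroblasts over other fibroblasts, for each measured gene (dot) of 26 gene lists, with the median as a line and the number of measured genes in brackets. Complement has the highest median at 0.41, and the dotted lines mark 2-fold.

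Markers of endothelium, macrophages and T or NK cells were at low levels in both groups of barcodes and, with barcodes of every depth included, lower in PTX3 and CCL26 fibroblasts. These lists, and that of smooth muscle, hold genes that the rule capped in both groups, so low levels follow in part from the choice. Summed endothelial markers were at 107 CPM in PTX3 and CCL26 fibroblasts and 196 CPM in the others, and summed macrophage markers at 57.4 and 110 CPM. Over 9 endothelial genes the median log2 ratio was -0.56, but with barcodes of at least 8000 UMIs on both sides it was 0.22. In the same order it was -0.45 and 0.15 over 7 macrophage genes, and -0.50 and -0.39 over 7 T or NK genes. T or NK markers were at 26.8 CPM in PTX3 and CCL26 fibroblasts and 66.5 CPM in the others. Other lists were level or lay the other way: smooth muscle markers were at 169 and 172 CPM, chondrocyte or osteoblast markers at 72.6 and 69.8 CPM, adipocyte markers at 42.3 and 24.5 CPM, pericyte markers at 34.0 and 38.6 CPM and Schwann cell markers at 32.5 and 22.7 CPM. B or plasma cell markers were at 11.2 and 14.5 CPM and the 1 measured mesothelial marker at 0.787 and 4.46 CPM, and no neutrophil or mast cell marker reached 10 UMIs. CD74, an antigen presentation gene of macrophages and endothelium, was at 94.0 CPM in PTX3 and CCL26 fibroblasts and 225 CPM in the others with every depth included. Their part in the gene differences was not tested.

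PTX3 was about as frequent in barcodes with CCL26 as in those without it, within counting error. Among fibroblast barcodes of at least 8000 UMIs, PTX3 was detected in 60 of 320 with CCL26 (18.8%, 14.6 to 23.5%) and in 36 of 147 without it (24.5%, 17.8 to 32.3%). The PTX3-only barcodes (39) were therefore set against the CCL26-only barcodes (322), a comparison chosen after the values were seen. They had medians of 14440 and 10668 UMIs. Of 3745 genes, 192 (5.13%) were at least 2-fold higher in PTX3-only barcodes and 148 (3.95%) at least 2-fold lower. With 39 barcodes and 530655 UMIs on the PTX3-only side, few cells can carry a value, and in 28 of the 192 genes a single barcode held more than 50% of the UMIs. The 15 highest and 15 lowest genes were taken from those in which none did, while list members such as CCL2 were named without that limit.

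Some genes of hyaluronan synthesis and binding were high in PTX3-only barcodes, while the list as a whole was split. Of 12 measured hyaluronan matrix genes 6 were above 0, with a median log2 ratio of 0.24 against -0.12 over all genes. HAS1, a hyaluronan synthase, was at 496 CPM in PTX3-only barcodes and 35.9 CPM in CCL26-only barcodes, a ratio of 13.8 (11.2 to 17.2), and was detected in 21 of 39 and 37 of 322. UAP1, which makes the UDP-sugar that hyaluronan is built from, was at 1372 and 228 CPM, a ratio of 6.02 (5.44 to 6.66), and was detected in 36 of 39 and 208 of 322. Neither UAP1 nor GFPT2 belongs to that list. GFPT2, an enzyme of the same hexosamine pathway chosen after its values were seen, was at 884 and 210 CPM. These genes were all higher in PTX3-only than in CCL26-only barcodes. HAS1 and UAP1 were named by their rank in this same comparison, so their ratios and intervals are descriptions. The other fibroblasts lay between the 2 kinds, with HAS1 at 80.2 CPM, UAP1 at 549 CPM and GFPT2 at 449 CPM. Part of each gap is thus a CCL26-only level below that of the other fibroblasts.

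TNFAIP6, which transfers protein chains onto hyaluronan, was at 2642 CPM in PTX3-only barcodes and 777 CPM in CCL26-only barcodes. VCAN, the hyaluronan-binding proteoglycan versican, was at 2080 and 781 CPM, and CD44, the hyaluronan receptor, at 430 and 84.4 CPM. The other fibroblasts again lay between, with TNFAIP6 at 1414 CPM, VCAN at 1088 CPM and CD44 at 252 CPM. In all, 4 of 12 measured hyaluronan matrix genes were at least 2-fold higher in PTX3-only barcodes and 1 was at least 2-fold lower, against 3.16% and 5.93% of all genes of at least 10 UMIs. At 8000 UMIs, TNFAIP6 had a median of 18.5 UMIs in 24 PTX3-only barcodes (lowest 2, highest 60) and 4 in 228 CCL26-only barcodes (lowest 0, highest 55).

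NF-kB and interleukin 1 response genes were on the same side, as were several other lists. Of 17 measured, 15 were above 0, with a median log2 ratio of 0.79 against -0.12 over all genes. At least 2-fold higher in PTX3-only barcodes were 6, against 3.16% of all genes of at least 10 UMIs. TNFAIP6 counts in both this list and the hyaluronan matrix list. NFKBIA, the inhibitor that NF-kB itself induces, was at 820 CPM in PTX3-only barcodes and 274 CPM in CCL26-only barcodes. IER3, a stress response gene, was at 773 and 252 CPM, and NFKB1, a subunit of NF-kB, at 224 and 88.6 CPM. CCL2, a monocyte chemokine, belongs to the chemokine list and not to this one. It was at 302 and 51.6 CPM, with 93 of its 160 UMIs in 1 PTX3-only barcode. Of the 15 highest genes, CDKN1A, an inhibitor of cyclin-dependent kinases, was at 177 and 23.5 CPM and GADD45A, a DNA damage response gene, at 392 and 87.2 CPM. The cell cycle list had 3 of 12 genes above 0 and a median of -0.21. Interferon gamma and antigen presentation genes had 11 of 13 above 0 (median 0.58), and interleukin 4 and 13 response genes 8 of 10 (0.59). Type I interferon genes had 15 of 18 above 0, immediate early genes 17 of 23 and endothelial markers 7 of 7. Prostaglandin genes (3 of 10 above 0, median -0.63) and small leucine-rich proteoglycans (3 of 11, -0.41) were among those on the CCL26 side.

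Several genes that were low in the whole group were high in PTX3-only barcodes. IGFBP5 was at 2563 CPM in PTX3-only barcodes and 869 CPM in CCL26-only barcodes, close to the 2638 CPM of the other fibroblasts. DPT was at 516 and 98.0 CPM, ECM1 at 128 and 18.8 CPM, NTN4 at 198 and 19.3 CPM and ALOX15 at 111 and 12.97 CPM. All 15 genes named as lowest in the whole group were higher in PTX3-only than in CCL26-only barcodes. That group is mostly CCL26-only barcodes and the genes were ranked on it, so this count follows in part from the choice. In PTX3-only barcodes 9 of the 15 were above the other fibroblasts. Of these 9, ECM1, BMP7, C17orf58, MMP16 and NCKAP5 had intervals that overlapped those of the other fibroblasts, with MMP16 at 234 and 231 CPM. The remaining 6 of the 15 were below the other fibroblasts, such as GALNT10 at 26.4 CPM in PTX3-only barcodes and 52.4 CPM in the other fibroblasts, and RGS6 at 62.2 and 111 CPM. TEX26, HS3ST2, PLCB1, CDK17, NCKAP5 and AIF1L completed the 15 highest. HS3ST2, a heparan sulfate sulfotransferase, was found in 6 of 39 PTX3-only barcodes and 4 of 322 CCL26-only barcodes.

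Of the 15 genes named as highest in the whole group, 14 were lower in PTX3-only than in CCL26-only barcodes. Of the same 15, 11 were lower in PTX3-only barcodes than in the other fibroblasts. The first count follows in part from the choice, since the ranked group is mostly CCL26-only barcodes. The exception to the first count was IL1RL1, at 107 CPM in PTX3-only barcodes, 124 CPM in barcodes with both genes and 28.1 CPM in CCL26-only barcodes. All 57 IL1RL1 UMIs of PTX3-only barcodes lay in 1 barcode, and without it their level was 0 CPM. PTGDS was at 707 CPM in PTX3-only barcodes and 5073 CPM in CCL26-only barcodes, with a median at 8000 UMIs of 1 UMI in PTX3-only and 35 UMIs in CCL26-only barcodes. SMOC1 was at 1.88 and 63.5 CPM, resting on 1 UMI in PTX3-only barcodes, CYP4B1 at 5.65 and 104 CPM, and SLC25A21 at 9.42 and 121 CPM. Each was lower in PTX3-only barcodes than in the other fibroblasts as well, where SMOC1 stood at 17.1 CPM and CYP4B1 at 30.5 CPM. Complement genes lay on the CCL26 side, with none of 8 above 0 and a median of -0.72, against -0.12 over all genes. Of the 8, 3 were at least 2-fold lower in PTX3-only barcodes, against 5.93% of all genes of at least 10 UMIs.

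Further genes of the CCL26 side were HPGD, which inactivates prostaglandins (15.1 CPM in PTX3-only barcodes and 71.2 CPM in CCL26-only barcodes), ANGPT4 (18.8 and 94.9 CPM), IGF-I, a growth factor (11.3 and 60.2 CPM), CP, the copper oxidase ceruloplasmin (5.65 and 51.1 CPM), and LAMA2, a laminin chain (11.3 and 65.7 CPM). CLEC11A, ADCY2, NTM, CNTN3, C1QTNF7 and NHS completed the 15 lowest. The 78 barcodes with both genes lay nearer to the CCL26-only ones for PTGDS at 4106 CPM and IGFBP5 at 1117 CPM, and between the 2 kinds for TNFAIP6 at 1628 CPM and HAS1 at 135 CPM.

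**Figure D5:**
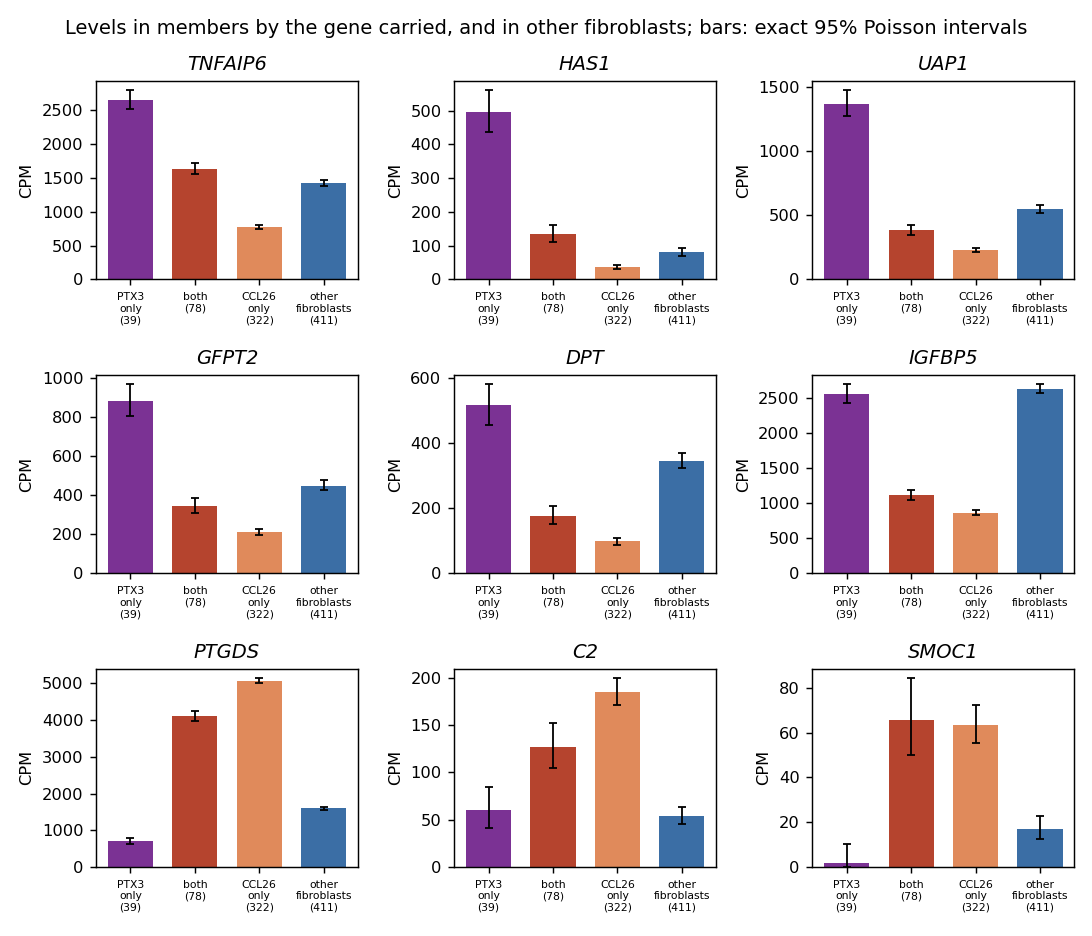
CPM (vertical axes, from 0) of 9 genes in PTX3-only barcodes (39), barcodes with both genes (78), CCL26-only barcodes (322) and other fibroblasts (411), with exact 95% Poisson intervals. TNFAIP6, HAS1, UAP1, GFPT2 and DPT are highest in PTX3-only barcodes, PTGDS and C2 in CCL26-only barcodes, and IGFBP5 is close in PTX3-only barcodes (2563 CPM) and other fibroblasts (2638 CPM).

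One PTX3-only barcode carried 90 of the 134 UMIs of endothelial rule genes found in the 39, and without it 176 genes were at least 2-fold higher in PTX3-only than in CCL26-only barcodes and 138 lower. HAS1 was then at 530 CPM in PTX3-only and 35.9 CPM in CCL26-only barcodes, and all 30 named genes kept their direction. With 8000 UMIs or more on both sides the counts were 183 and 152.

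CCL26 was also found outside fibroblasts. Endothelial barcodes of the native library, chosen by the same form of rule, had 66.5 CPM of CCL26 (62.8 to 70.4), against 655 CPM over all 850 fibroblast barcodes. At 1000 UMIs, 37.9% of fibroblast barcodes had a PTX3 or CCL26 UMI. Such a UMI was found in 8.89% of 3488 endothelial, 4.79% of 730 macrophage and 1.90% of 473 T or NK barcodes. None of 64 smooth muscle barcodes had one (taking 3 counts as the floor, a share of barcodes with a UMI at this depth of up to 4.69% is allowed, and the exact 95% bound is 5.60%). At full depth, 2 or more such UMIs were found in 7.51% of endothelial, 2.74% of macrophage and 0.211% of T or NK barcodes, against 51.6% of fibroblast barcodes. Median depths were 8992.5 UMIs in fibroblast and 5749 UMIs in T or NK barcodes. CCL26 per 100 fibroblast-gene UMIs was 8.02 in fibroblast barcodes, 55.4 in endothelial, 14.5 in macrophage and 14.0 in T or NK barcodes. The rule for the other classes caps their fibroblast-gene UMIs, which raises this ratio by construction, and the part of free RNA was not tested.

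In the graft, 52 barcodes met the fibroblast rule and 2 (3.85%, 0.469 to 13.2%) had 2 or more PTX3 and CCL26 UMIs, against 439 of 850 in the artery. Graft fibroblasts held 9 CCL26 UMIs (6.70 CPM, 3.07 to 12.7) and 9 PTX3 UMIs, at a median of 19746 UMIs per barcode. The 850 native fibroblast barcodes had a median of 8992.5 UMIs, below that of the graft ones. PTGDS was at 224 CPM in graft fibroblasts, IGFBP5 at 1980 CPM and DPT at 676 CPM. The graft and artery are 1 library each, and library and tissue cannot be told apart.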

How the data were processed

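Per the file headers, the deposited values are UMI counts that Cell Ranger 7.2.0 wrote, as 1 filtered matrix per library. Other tools in the submitters' processing notes are Seurat 5.0.0, R 4.3.3 and bcl2fastq 2.20.0.422, with no role stated. The genome build is not given in the sources used here. Of 21890 listed genes 6435 lack a symbol, and the RefSeq gene table matched 0 of those.

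Barcodes were chosen by the stated rule. Counts were summed over barcodes and scaled to CPM with Python 3.11.15, numpy 2.4.6, scipy 1.17.1 and pandas 2.3.3. Named genes were the 15 highest and 15 lowest log2 ratios (5 CPM added) of symbol genes that reached 50 CPM and 30 UMIs on the higher side. This leaves out the rule's genes, genes of mitochondria, ribosomal proteins, haemoglobins and immunoglobulins, and any gene below the other native barcodes' CPM divided by 4. List members needed 10 UMIs. For each list the 4 highest members and every 2-fold member could be named. For PTX3-only against CCL26-only barcodes the same rule held, leaving out genes with more than 50% of UMIs in 1 barcode, and this comparison was chosen after its values were seen. The members and lists were chosen with earlier results of these data known. Scrublet in scanpy 1.11.5 called 0 doublets (0%), which is no working call, so doublets stayed in, and removing the 1034 highest scores was an alternative. Calculations were tested on simulated counts.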

Additional observations from a re-analysis of the deposited data

Results flagged for a closer look

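CCL26 appeared in graft smooth muscle barcodes, which no comparison above uses. They held 179 CCL26 UMIs in 136 barcodes, or 25.4 CPM (21.8 to 29.4), against 1 UMI in 64 native smooth muscle barcodes, or 1.78 CPM (0.0451 to 9.92). The UMIs lay in 12 barcodes, and 1 barcode held 123 of them. Without it the level was 8.05 CPM. The difference between the libraries was not tested.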

How the results depend on the processing

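The share of native fibroblast barcodes that were PTX3 and CCL26 fibroblasts, 51.6%, was 62.7% with at least 2000 UMIs per barcode, 36.7% with at least 500, and 56.4% when the fibroblast sum had to be 4 times each other sum. It was 65.3% from 1 UMI, 34.4% from 5 UMIs, 9.06% by PTX3 alone, 44.7% by CCL26 alone and 37.4% by 1 UMI after thinning to 1000 UMIs, in a random draw other than the one that gave 37.9%.

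The 18 genes at least 2-fold higher became 71 by PTX3 alone, 92 with PTX3-only barcodes, 4 by 1 UMI at 1000 UMIs, 61 with thinned counts, 29 with equal weight per barcode, 35 at 10 CPM and 10 UMIs and 36 with no limit. The 27 lower genes became 47 with at least 500 UMIs, 46 from 5 UMIs, 13 by PTX3 alone, 55 by CCL26 alone, 13 by 1 UMI at 1000 UMIs, 81 with thinned counts, 100 with equal weight, 76 at 10 CPM and 10 UMIs, 84 with no limit, 55 with CCL26-only barcodes and 88 with PTX3-only barcodes. The settings with lower limits or thinned counts test other genes or fewer UMIs; the other causes were not tested.

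All 30 named genes kept their direction under 19 of 22 settings, and the 3 exceptions were PTX3 alone, PTX3-only barcodes and thinned counts. At least 2-fold in that direction were 13 by 1 UMI at 1000 UMIs, 18 with thinned counts and 21 with equal weight per barcode. It was 1 gene by PTX3 alone and 1 with PTX3-only barcodes, and 24 to 28 under the other settings. By PTX3 alone 22 of the 30 turned direction and with PTX3-only barcodes 20 did, of which those at least 2-fold apart in the whole group are given here. By PTX3 alone the log2 ratio was -1.27 for SMOC1, -0.81 for C2, -0.73 for PTGDS, -0.89 for CYP4B1, -0.42 for ANGPT4, -0.99 for SLC25A21, -0.29 for CPE, -0.59 for SLC16A14, 0.37 for ECM1, 0.20 for BMP7, 0.65 for ALOX15, 0.68 for NCKAP5, 1.00 for NTN4, 0.39 for IGFBP5, 0.059 for DACT2, 1.49 for ADAMTS19, 0.21 for C17orf58, 0.13 for MMP16 and 0.90 for DPT. With PTX3-only barcodes it was -1.68 for SMOC1, -1.17 for PTGDS, -1.73 for CYP4B1, -0.73 for ANGPT4, -1.71 for SLC25A21, -0.39 for CPE, -0.11 for SLC16A14, 0.041 for ECM1, 0.019 for BMP7, 0.59 for ALOX15, 0.30 for NCKAP5, 0.82 for NTN4, 1.10 for ADAMTS19, 0.0099 for C17orf58, 0.019 for MMP16 and 0.57 for DPT. With thinned counts ALOX15 was at 0.15. The alternatives within PTX3 and CCL26 fibroblasts, barcodes of at least 8000 UMIs, leaving out barcodes with other classes' UMIs or the top barcode, and other fibroblasts at 0 UMIs were chosen after seeing the data.

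No paired analysis was possible because each condition is 1 library. Depth limits detection in shallow barcodes, since 272 of 850 fibroblast barcodes had under 4000 UMIs.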
